A study of Mus musculus with 9 samples.

Results

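The genes described here were 8 S100 genes (S100a1, S100a4, S100a6, S100a10, S100a11, S100a13, S100a16 and S100b) and Lor, the gene of loricrin. They were chosen by name, with earlier results of these data known. All 9 were found by Ensembl identifier among the 54232 genes of the count files. Cochlear duct RNA was sequenced at embryonic day 14.5 (E14.5) from 3 WT, 3 heterozygous and 3 null mouse embryos for Prdm16, a zinc finger transcriptional regulator. The cGT allele is a gene trap in Prdm16 that is carried in every cell of the animal, and the colony was kept on the FVB/NJ background. WT embryos carried no cGT allele, heterozygotes were Prdm16 cGT/+ and null embryos were Prdm16 cGT/cGT, all from cGT/+ intercrosses and without further treatment. Each library was made from both microdissected ducts of 1 embryo, so it holds every cell type that stayed with the duct, and the 3 embryos of a genotype were littermates.

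S100 proteins are small calcium-binding proteins of the EF-hand type. Most of them form dimers that change shape when calcium binds and then grip partner proteins such as annexins, cytoskeletal proteins and calcium channels. Most S100 genes lie together with loricrin and other skin barrier genes in the epidermal differentiation region, on mouse chromosome 3. In the inner ear, S100 proteins serve as stains for hair cells, supporting cells and glia, while loricrin is best known as a main protein of the cornified envelope of the epidermis.

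All positions are given for mm10, the same sequence as GRCm38, with the GENCODE M21 annotation. S100a1 lies at chr3:90511034-90514392 on the minus strand and S100a13 at chr3:90514435-90524581 on the plus strand, so both genes start beside each other and are read in opposite directions. S100a16 follows at chr3:90537254-90543151, S100a4 at chr3:90603771-90606045 and S100a6 at chr3:90612882-90624181, each on the plus strand. Lor stands further along at chr3:92080271-92083142 on the minus strand. S100a11 at chr3:93520488-93526287 and S100a10 at chr3:93555080-93564643 are at the far end, on the plus strand. S100b is the one gene of the group on another chromosome, at chr10:76253853-76261159 on the plus strand. Of the 9 genes, S100a4 was the one whose exons overlapped those of another annotated gene, sharing 302 of its 584 exon bases with Gm42674 on the same strand. The exons of S100a1 and S100a13 share no base, so a read on one is not a read on the other.

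The sequence between the S100a1 and S100a13 starts is shown because these neighbouring genes were both called higher in null embryos, as described below. The strip is 42 bases long between the GENCODE starts, at chr3:90514393-90514434, and was read on the plus strand from the GRCm38.p6 promoter sequences of RefSeq, where the start of S100a1 lies further inside the gene and the gap is longer. Its GC content was 54.8%. It was searched on both strands for 5 short promoter motifs. The TATA box was searched as TATAAA, which 12.97% of the 250-base RefSeq windows of 27025 mouse genes held. The box that NF-Y binds was searched as CCAAT and was found in 34.5% of these windows. The GC box of SP factors was searched as GGGCGG and was found in 32.9%. The AP-1 site was searched as TGANTCA and was found in 6.87%. The core of SOX factor sites was searched as ACAAAG and was found in 16.5%. No match printed here overlapped another, and the strip held 0 matches to each of the 5. A window of only 42 bases seldom holds one, since 0.858% to 13.7% of the last 42 bases before the RefSeq starts of the same genes did, depending on the motif.

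Strip between S100a1 and S100a13: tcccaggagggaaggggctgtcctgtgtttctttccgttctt

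The 250 bases before the RefSeq start of Lor and of S100b are shown for the 2 other genes whose values in null and WT embryos were apart. The Lor window is chr3:92083143-92083392 on the minus strand, and the S100b window is chr10:76253586-76253835 on the plus strand. Capitals mark matches to the 5 motifs above, with positions counted back from -1 at the last base before the start. The Lor window held a TATA box at -27 to -22 and an AP-1 match at -48 to -42. The S100b window held the NF-Y box at -202 to -198, and again on the other strand at -20 to -16, where the print shows its reverse complement.

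Lor: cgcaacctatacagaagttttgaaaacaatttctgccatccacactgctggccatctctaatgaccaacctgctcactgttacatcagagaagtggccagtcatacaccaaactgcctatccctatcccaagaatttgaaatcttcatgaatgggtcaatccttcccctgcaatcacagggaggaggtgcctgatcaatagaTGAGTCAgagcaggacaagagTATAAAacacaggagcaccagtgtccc

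S100b: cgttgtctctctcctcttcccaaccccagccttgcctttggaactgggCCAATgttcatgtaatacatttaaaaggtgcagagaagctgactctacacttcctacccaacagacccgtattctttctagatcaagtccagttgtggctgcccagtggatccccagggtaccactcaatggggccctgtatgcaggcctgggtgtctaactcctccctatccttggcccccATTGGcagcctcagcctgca

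By the shares above, the AP-1 letters are the least common of those seen in these windows. RefSeq windows were matched for 8 of the 9 genes, and a match describes the letters and is not a site of binding.

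A pair of PCR primers that the study used for S100a1 is given with its place, to show which exons it reads. The forward primer matches exon 2 at chr3:90512077-90512097 and the reverse primer matches exon 3 at chr3:90511270-90511290, and among the annotated transcripts each matched those of S100a1 alone. The product spans 197 bases in one S100a1 transcript and 214 bases in the other.

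S100a1 forward primer: aatgtgttccatgcccattcg

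S100a1 reverse primer: accagcacaacatactccttg

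The 9 libraries held 24095322 to 30819118 counts each, so that 3 counts, taken as the floor of a library, stood for 0.0969 to 0.126 CPM. CPM are the counts scaled to a common library total, with TMM normalization over the 9 libraries. The floor covers counting error only, while the 95% intervals and p-values below come from the fit and include the spread between embryos. The Prdm16 level itself was 184 to 225 CPM in WT, 123 to 151 CPM in heterozygotes and 19.1 to 27.4 CPM in null embryos, in the order of the labels. Of 16 prosensory genes, which mark the floor of the duct where the sensory organ forms, all were expressed, with a summed level of 2980 to 4386 CPM per library. A gene was called changed at an adjusted p under 0.05 in edgeR's quasi-likelihood test with Benjamini-Hochberg adjustment over all genes tested, together with an absolute log2 fold change over 0.5. In bulk tissue, more cells of a type and more RNA per cell cannot be told apart.

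Several libraries also carried different amounts of RNA from other cell types. The summed level of 12 chondrocyte genes was 15206 CPM in null embryo 3 and between 6004 and 7155 CPM in the 8 other libraries. In that library Acan, a cartilage proteoglycan, stood at 502 CPM, against 1.02 to 7.03 CPM elsewhere. The summed level of 12 hair cell genes was 242 CPM in WT embryo 3 and 309 CPM in null embryo 3, and between 137 and 176 CPM in the others. The summed level of 12 mesenchyme genes was 1371 CPM in WT embryo 1, 1811 CPM in WT embryo 2 and 2412 CPM in null embryo 3, against 676 to 897 CPM elsewhere. The changes of S100a1, S100a13, S100b and Lor in null against WT are therefore also given without WT 3 and null 3. They are also given without WT 1, WT 2 and null 3, and both choices were made after the data were seen.

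S100a1, S100a13 and S100b rose in null embryos, and none of the 8 tested genes was called lower. The mean level of S100a1 was 2.60 times, that of S100a13 2.72 times and that of S100b 4.42 times the WT mean. Lor was 2.00 times the WT mean but did not pass the threshold. The other 4 tested genes, S100a10, S100a11, S100a16 and S100a6, had log2 fold changes between 0.15 and 0.29, with null and WT values that overlapped. Of the 9 genes, 8 had enough counts to be tested, and 3 of these 8 were called higher in null embryos, against 0.920% of all 17168 genes tested. By edgeR 0 were called lower, against 0.786% of all genes, and the same count of 0 was found with DESeq2 and limma-voom. At an unadjusted p under 0.05 there were 4, all higher, while 12.2% of all genes were under it in either direction. In 4 of the 8 genes the null values lay wholly above the WT values, while this held for 10.1% of all genes, and the opposite order, seen in 0 of the 8, held for 8.95%. The median log2 fold change was 0.64 over the 8 genes and 0.0097 over all genes tested. The genes were chosen with earlier results of these data known. The paper already lists S100a1, S100a13 and S100b among its top upregulated genes. These shares therefore describe the chosen genes and are no test of the group.

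**Figure D1:**
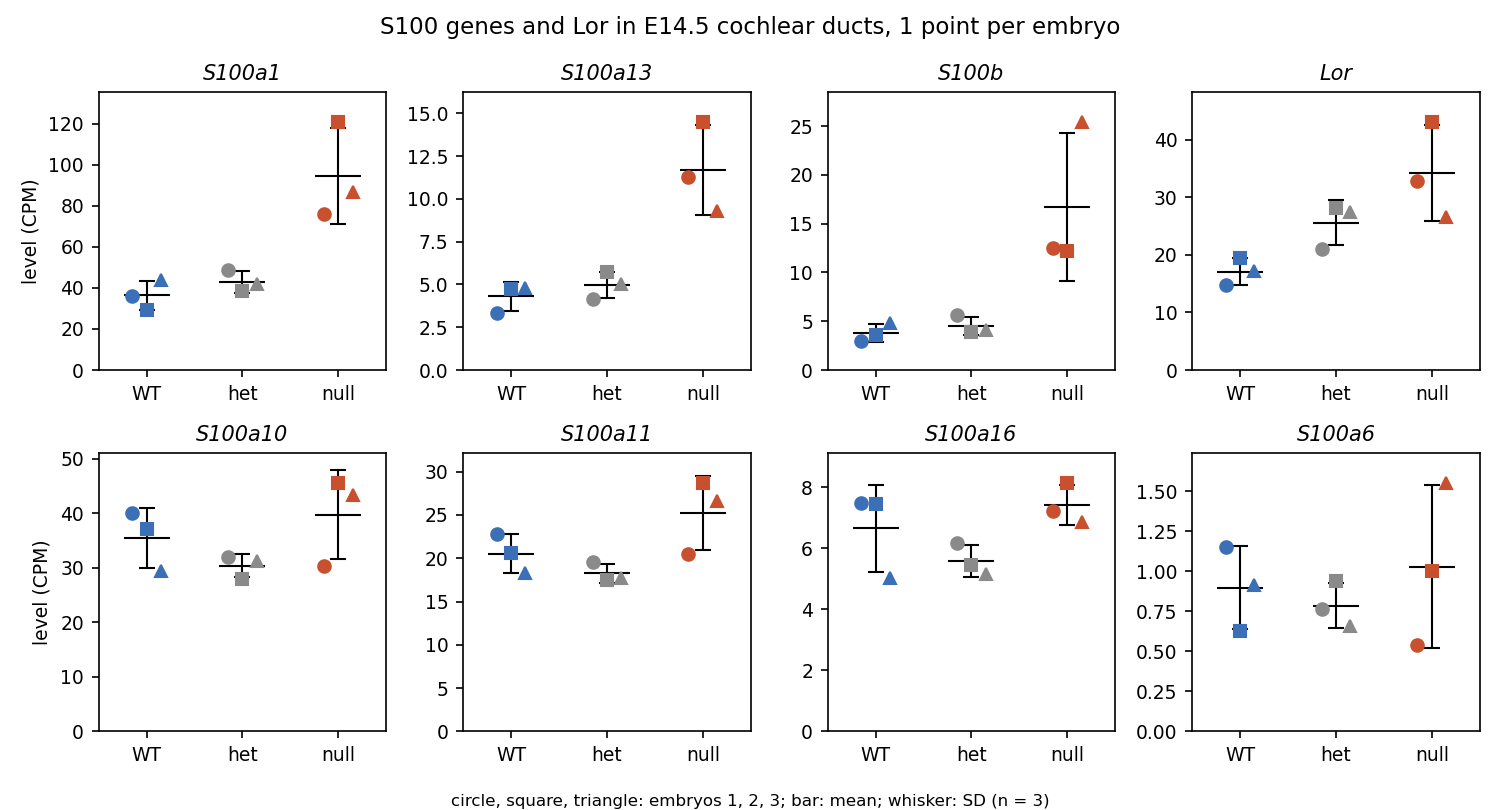
Level in CPM (y axis) of the 8 tested genes in each embryo (points), by genotype (x axis), with the mean and SD of 3 embryos. S100a1, S100a13, S100b and Lor lie higher in every null embryo than in any WT embryo, while in the lower row the null and WT points overlap.

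S100a1 encodes a calcium sensor known from heart and skeletal muscle, where it acts on the calcium release channel and the calcium pump. Its counts were 979, 747 and 1285 in WT embryos, 1208, 1061 and 1141 in heterozygotes, and 1840, 3742 and 2073 in null embryos. All null embryos were above all others, and the heterozygotes lay within or just above the WT range. In CPM the means were 36.4 ± 7.15 in WT, 42.8 ± 5.22 in heterozygotes and 94.6 ± 23.4 in null embryos (SD, n = 3 each). Null against WT gave a log2 fold change of 1.37, with a 95% interval of 0.91 to 1.84 and an edgeR adjusted p of 0.0175. The call was lost without WT embryo 1 (adjusted p = 0.108) or without WT embryo 2 (adjusted p = 0.0930), and in the 4 other fits that left out an embryo it was kept. Without WT 3 and null 3, the libraries with the most hair cell RNA, the log2 fold change was 1.58 (adjusted p = 0.00541). Without WT 1, WT 2 and null 3, those with the most mesenchyme RNA, it was 1.18 (adjusted p = 0.00298), a fit in which the single WT library is assumed to vary like the null libraries.

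S100a13 encodes a protein that takes part in the release of FGF1 and interleukin 1 alpha, which leave the cell without a signal peptide. Its counts were 90, 121 and 142 in WT, 104, 159 and 137 in heterozygotes, and 273, 449 and 222 in null embryos. The lowest null value thus exceeded the highest value of the other genotypes. The means were 4.30 ± 0.836, 4.97 ± 0.778 and 11.7 ± 2.62 CPM in WT, heterozygous and null embryos (SD, n = 3 each). The log2 fold change of null against WT was 1.44, with a 95% interval of 0.90 to 1.98 and an edgeR adjusted p of 0.0251. This call was the least secure of the 3: with 1 embryo left out it was kept only without null 3 (adjusted p = 0.0121), and was lost without WT 1, WT 2, WT 3, null 1 or null 2 (adjusted p from 0.0636 to 0.118). The log2 fold change stayed between 1.26 and 1.58 in these fits. It was 1.67 without WT 3 and null 3 (adjusted p = 0.00822) and 1.42 without WT 1, WT 2 and null 3 (adjusted p = 0.00467).

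Both genes around the strip printed above therefore rose by a like amount from different levels. In each library S100a13 had between 8.61% and 16.2% of the CPM of S100a1. This share was 9.19%, 16.2% and 11.1% in WT embryos and 14.8%, 12.0% and 10.7% in null embryos, so that the genotypes overlapped in it. Over the 9 libraries, which fall into 3 genotypes, the Pearson correlation of the log2 CPM of both genes was 0.90. It was 0.89 for S100a1 with S100b, on another chromosome, and 0.88 for S100a13 with Lor, so it was not particular to the neighbours.

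S100b encodes a protein best known from glia and Schwann cells and also found in cartilage and in cells of the inner ear. With all libraries it had the largest fold change of the 8 tested genes in null embryos. It did not without WT 1, WT 2 and null 3, where its log2 fold change was 1.36, against 1.42 for S100a13. S100b counts were 79, 92 and 142 in WT, 140, 107 and 111 in heterozygotes, and 302, 379 and 607 in null embryos. All 3 null embryos were above all 6 others, with null embryo 3 far above its littermates. The means were 3.78 ± 0.957, 4.51 ± 0.966 and 16.7 ± 7.56 CPM (SD, n = 3 each) in WT, heterozygous and null embryos. Null against WT gave a log2 fold change of 2.13, with a 95% interval of 1.35 to 2.92 and an edgeR adjusted p of 0.0241.

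Null embryo 3, with 25.4 CPM of S100b, was also the library with the highest chondrocyte, hair cell and mesenchyme sums. Without it the log2 fold change of S100b was 1.70 (adjusted p = 0.0103), and the remaining null embryos stood at 12.5 and 12.2 CPM. The value was 1.91 without WT 3 and null 3 (adjusted p = 0.00224) and 1.36 without WT 1, WT 2 and null 3 (adjusted p = 0.00926). In the last fit the linear fold change is smaller than that of the whole set by over 1.5 times. The call was lost without WT 1, WT 2 or WT 3 (adjusted p of 0.134, 0.149 and 0.0552). Of the glia and Schwann list, 0 of the 11 tested genes were called by edgeR or by DESeq2, 0 had an unadjusted p under 0.05, and the summed level was 1584 to 1683 CPM in WT and 1555 to 1727 CPM in null embryos. One member, Pmp22, stood at 37.7 CPM in null 3 and at 2.51 to 8.98 CPM elsewhere. The most abundant genes, which dominate the sum, were Sox10, at 790 ± 46.0 CPM in WT and 864 ± 71.2 CPM in null embryos (SD, n = 3), and Erbb3, at 705 ± 33.6 and 631 ± 71.1 CPM. The sum therefore mainly gives the level of Sox10 and Erbb3. Foxd3 (2 to 26 counts per library) and Cdh19 (3 to 19 counts) were near the floor, and Gfra3 was not tested. Whether glial RNA differed was not tested beyond these genes.

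**Figure D2:**
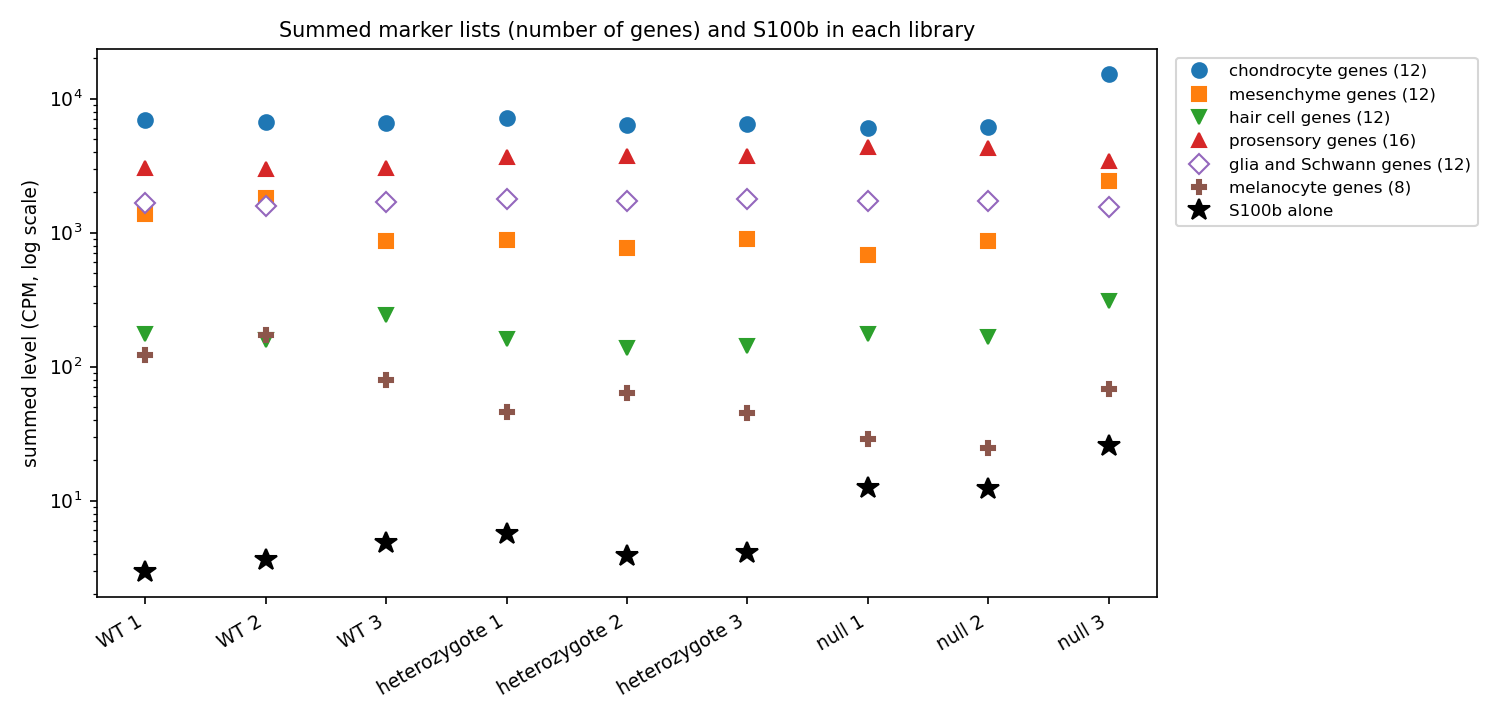
Summed CPM (y axis, log scale) of 6 cell type marker lists and the CPM of S100b alone (stars) in each of the 9 libraries (x axis). S100b is above 12 CPM in all 3 null libraries, while the chondrocyte sum stands apart in null 3 alone.

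Lor had counts of 398, 494 and 505 in WT, 524, 782 and 751 in heterozygotes, and 796, 1335 and 633 in null embryos. Every heterozygote and every null embryo was above every WT embryo, and the heterozygotes overlapped the null embryos. The means were 17.1 ± 2.32, 25.6 ± 3.93 and 34.2 ± 8.37 CPM (SD, n = 3 each). The log2 fold change of null against WT was 1.00, with a 95% interval of 0.55 to 1.44, and its edgeR adjusted p of 0.0516 missed the threshold. DESeq2 called it (adjusted p = 2.27e-05) and limma-voom did not (adjusted p = 0.0568), and of the 8 alternative settings 4 called it. With 1 embryo left out it was called without null 3 (log2 fold change 1.15, adjusted p = 0.0124) and not in the 5 other fits (adjusted p from 0.0846 to 0.230). It was also called without WT 3 and null 3 (adjusted p = 0.0132) and without WT 1, WT 2 and null 3 (adjusted p = 0.00624).

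S100a10 and S100a11 are annexin partners, with S100a10 bound to annexin A2 in a complex that needs no calcium and S100a11 bound mainly to annexin A1. S100a10 counts were 1081, 948 and 866 in WT, 795, 777 and 853 in heterozygotes, and 735, 1410 and 1034 in null embryos. Null and WT values overlapped, and the log2 fold change of null against WT was 0.16 with a 95% interval of -0.25 to 0.57 (edgeR adjusted p = 0.776). S100a11 counts were 614, 525 and 538 in WT, 487, 484 and 485 in heterozygotes, and 495, 888 and 635 in null embryos. Null against WT gave a log2 fold change of 0.29 with a 95% interval of -0.06 to 0.65 (edgeR adjusted p = 0.5001). These intervals leave room for changes of moderate size in either gene.

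S100a16, an S100 gene with a wide tissue range, had counts of 202, 190 and 148 in WT, 154, 151 and 141 in heterozygotes, and 175, 252 and 164 in null embryos. Here the null against WT log2 fold change was 0.15 with a 95% interval of -0.31 to 0.62 (edgeR adjusted p = 0.810). S100a6, or calcyclin, was close to the limit of detection, with 16 to 31 counts in WT, 18 to 26 in heterozygotes and 13 to 37 in null embryos. At this depth its interval of -0.83 to 1.21 around a log2 fold change of 0.19 held both a fall and a rise (edgeR adjusted p = 0.896). S100a4, often used as a fibroblast marker, had 2 counts in WT embryo 3 and 0 counts in the other 8 libraries, below the floor in every library, and was not tested.

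Heterozygotes did not differ from WT by the threshold in any of the 8 tested genes. By edgeR 0 of the 8 tested genes were called higher and 0 lower, where 0.0521% and 0.0984% of all 17269 genes were. At an unadjusted p under 0.05 there was 1 of the 8, near the share of 13.1% over all genes. DESeq2 also called 1, and both times the gene was Lor. Lor was the one gene whose heterozygous and WT values did not overlap, being higher in heterozygotes. Among all genes, 8.97% did not overlap with the heterozygotes higher and 8.99% with the heterozygotes lower. Its log2 fold change was 0.58 with a 95% interval of 0.28 to 0.88 (edgeR adjusted p = 0.0933, DESeq2 adjusted p = 0.00155). For the genes that rose in null embryos the values were 0.23 for S100a1 (95% interval -0.07 to 0.54), 0.21 for S100a13 (-0.23 to 0.65) and 0.25 for S100b (-0.26 to 0.76).

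Null embryos were also compared with heterozygotes, a comparison that shares the null libraries with the one above and is thus not independent of it. By edgeR 3 of the 8 tested genes were called higher, against 0.293% of all 17067 genes, and 0 lower, against 0.322%. At an unadjusted p under 0.05 there were 6, where 11.4% of all genes were. DESeq2 and limma-voom likewise called 0 lower, and limma-voom called 1 higher in place of 3. The log2 fold change was 1.14 for S100a1 (edgeR adjusted p = 0.0323), 1.23 for S100a13 (adjusted p = 0.0486) and 1.89 for S100b (adjusted p = 0.0481). Of the 8 alternative settings, 7 kept the call of S100a1, 4 that of S100a13 and 5 that of S100b. Leaving out any 1 heterozygote ended all 3 calls (adjusted p from 0.124 to 0.293). Without null 1 only S100a1 was called (adjusted p = 0.0378), S100a13 was not called without null 2 (adjusted p = 0.0907), and without null 3 all 3 were. Lor had a log2 fold change of 0.42 with a 95% interval of -0.01 to 0.84 (edgeR adjusted p = 0.446). Null values lay wholly above heterozygous values in 5 genes, the 3 called and also S100a11 and S100a16, where 9.06% of all genes did so and 9.09% did the opposite. For S100a11 the log2 fold change was 0.47 (edgeR adjusted p = 0.285) and for S100a16 it was 0.41 (adjusted p = 0.401).

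**Figure D3:**
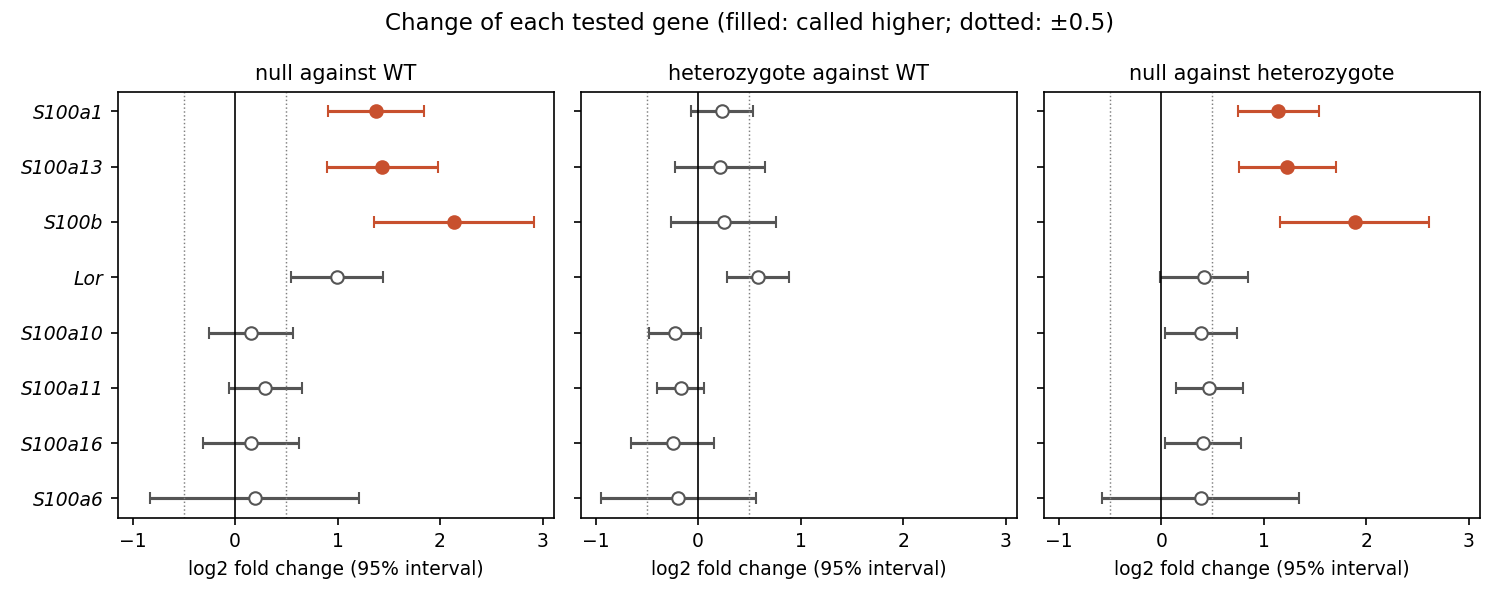
Log2 fold change (x axis) with its 95% interval for each of the 8 tested genes (y axis) in the 3 comparisons of genotypes. Filled points, called higher, are S100a1, S100a13 and S100b against both WT and heterozygotes, and the Lor interval lies above 0 against WT in both null and heterozygous embryos.

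Levels of different genes were compared per kb of exon. In WT embryos S100a1 was the highest at 52.4 ± 10.3 CPM per kb, followed by S100a11 at 40.2 ± 4.40 and S100a10 at 29.3 ± 4.56 (SD, n = 3). Lor stood at 9.60 ± 1.30, S100a13 at 6.01 ± 1.17, S100a16 at 4.11 ± 0.874 and S100b at 2.55 ± 0.645 CPM per kb, with S100a6 at 0.656 ± 0.191. Neighbours in this order whose libraries overlapped were S100a1 with S100a11, and S100a16 with S100b. In null embryos S100a1 stood at 136 ± 33.7 CPM per kb and no longer overlapped S100a11 at 49.4 ± 8.39. Lor at 19.2 ± 4.70, S100a13 at 16.4 ± 3.67 and S100b at 11.3 ± 5.09 CPM per kb overlapped each in turn, and S100b was above S100a16 at 4.58 ± 0.404 in every null embryo.

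The summed level of the 8 S100 genes was 127 to 142 CPM per kb in WT, 127 to 149 in heterozygotes and 204 to 302 in null embryos. S100a1 made up 38.6% ± 6.60 of this sum in WT, 45.1% ± 1.85 in heterozygotes and 53.9% ± 3.64 in null embryos (SD, n = 3). S100b went from 1.89% ± 0.493 in WT to 4.58% ± 2.12 in null embryos. S100a11 went the other way in share, from 29.7% ± 3.10 to 19.7% ± 1.19, with a level of its own that was not called changed.

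The genes around the chromosome 3 members were then described. From the start of the S100a1 gene model to the end of S100a10, 3.054 Mb, the files held 121 genes, of which 75 were protein coding and 66 had 0 counts in all libraries. Only 12 were tested, 7 of the genes described above and 5 others. Of those 5, Lce6a, a late cornified envelope gene at chr3:92620081-92621660 on the minus strand, was called higher. It had 6, 12 and 19 counts in WT, 21, 38 and 22 in heterozygotes, and 67, 149 and 71 in null embryos, so the 3 genotypes did not overlap. The log2 fold change of null against WT was 2.96 with a 95% interval of 1.98 to 3.94 (edgeR adjusted p = 0.0163), and the call was kept in 3 of the 6 fits that left out an embryo, with adjusted p from 0.0138 to 0.108. Lce6a passed the count filter of this comparison only through the null libraries, where it was high. The remaining genes were not called, with log2 fold changes of 0.62 for Ivl (involucrin, another envelope protein), 0.57 for Tchh (trichohyalin, an S100-fused protein of hair follicles), 0.34 for S100a14 and -0.53 for Gm4202.

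**Figure D4:**
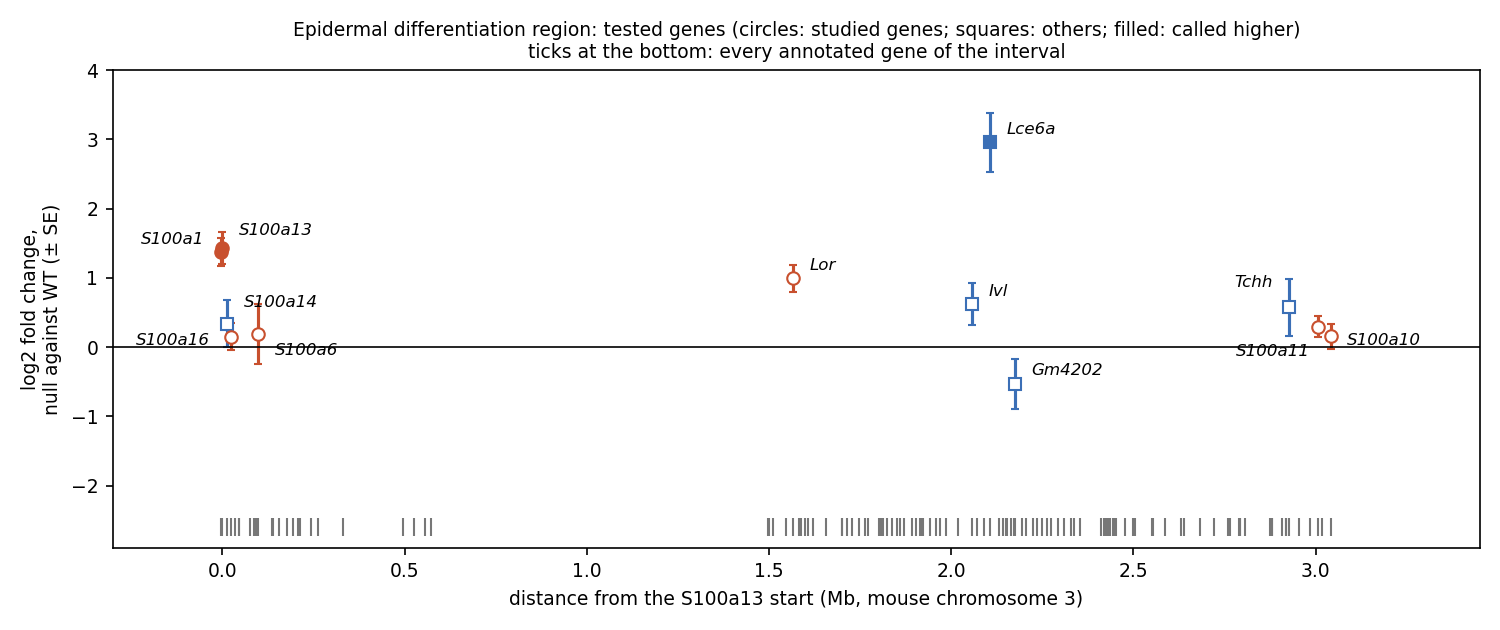
Log2 fold change of null against WT with its SE (y axis) for the 12 tested genes of the chromosome 3 interval, by distance in Mb from the S100a13 start (x axis), with a tick for each of its 121 genes. The filled points are S100a1, S100a13 and Lce6a, and S100a16, S100a6, S100a11 and S100a10 lie within 0.3 of 0.

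Other gene lists tied to these genes were read in the same fit of null against WT, in which 0.920% of all genes were called higher, 0.786% lower and 12.2% had an unadjusted p under 0.05. Of the other S100 genes 1, S100a14, had enough counts to be tested and was not called, and S100a9, a protein of granulocytes, stood at 0.383 ± 0.663 CPM in WT and 0.188 ± 0.147 CPM in null embryos (SD, n = 3). Of 7 S100-fused genes, 5 (Flg, Flg2, Hrnr, Rptn and Crnn) had 0 counts in all libraries, and the one tested, Tchh, was not called. Tchhl1 had 0 counts in every WT and every null library.

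Of 25 cornified envelope and keratinocyte genes, 10 were tested and 0 were called by edgeR or DESeq2, with 1 at an unadjusted p under 0.05. That gene was Krt5, a basal keratin, at 0.517 ± 0.426 CPM in WT and 1.88 ± 0.107 CPM in null embryos (SD, n = 3, log2 fold change 1.84, adjusted p = 0.323). Krt5 had 1, 17 and 25 counts in WT and passed the count filter only through the null libraries. Lce6a, called higher above, is an envelope gene that was not on this list. The list's median log2 fold change was 0.06, and its sum was 52.7 to 54.6 CPM in WT and 55.0 to 63.3 CPM in null embryos. Sprr1a, Sprr1b, Sprr2a1, Sprr3, Sprr4, Lelp1, Krt2 and Casp14 had 0 counts in all 9 libraries. Other members were detected, among them Evpl, Krt1 and Ivl. The most abundant members by the mean of all 9 libraries were Krt10, a keratin of differentiating epidermis, at 13.97 ± 1.31 CPM in WT and 13.9 ± 0.544 CPM in null embryos, and Ppl (periplakin), at 13.2 ± 1.31 and 14.4 ± 1.45 CPM (SD, n = 3).

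Of 20 genes whose proteins bind S100 proteins, all were tested, 1 was called higher and 0 lower, with 2 at an unadjusted p under 0.05, no larger a share than over all genes, and a median log2 fold change of 0.09. DESeq2 called 2 higher and 0 lower. The gene called was Anxa5 (annexin A5, a calcium-dependent membrane binder), at 243 ± 2.22 CPM in WT, 316 ± 9.43 CPM in heterozygotes and 545 ± 90.9 CPM in null embryos (SD, n = 3). Its log2 fold change was 1.16 (edgeR adjusted p = 0.00461), and the call was kept in all 6 fits that left out an embryo. Anxa2, the partner of S100a10, had 308, 268 and 296 CPM in WT and 393, 619 and 450 CPM in null embryos. Those values did not overlap, and yet the log2 fold change of 0.74 was not called (edgeR adjusted p = 0.0782). Fgf1, whose release involves S100a13, had a log2 fold change of 0.74 and was not called (adjusted p = 0.434).

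Lists of the cell types in and near the duct were read next. They were also chosen with earlier results of these data known. Of the 16 prosensory genes 5 were called higher and 0 lower, with the same counts by DESeq2 and with 9 at an unadjusted p under 0.05, and the median log2 fold change was 0.25. The 5 were Lfng (1.44, a modifier of Notch), Fgf20 (1.35, a growth factor of the prosensory domain), Prox1 (1.31, a transcription factor of the same domain), Tectb (0.94, a protein of the tectorial membrane) and Cdkn1b (0.52, a cell cycle inhibitor), all as log2 fold changes. The paper already reports each of these genes as upregulated in null cochleae. The prosensory counts therefore describe the chosen genes and are no test of the list. Of 11 tested hair cell genes 1 was called higher, the myosin gene Myo7a (log2 fold change 1.08, edgeR adjusted p = 0.0257). Otof stood apart in WT 3 and null 3, at 13.98 and 21.2 CPM against 0 to 0.884 CPM elsewhere. Pvalb was at 2.68, 4.55 and 4.99 CPM in null embryos and at 0 to 1.39 CPM in the other libraries, and was not called against WT (adjusted p = 0.295). It had 65 to 141 counts in null embryos and 1 to 9 in heterozygotes, and against heterozygotes it passed the threshold (edgeR adjusted p = 0.0203). In both comparisons it passed the count filter only through the null libraries, so that call is not counted as a result. With 1 embryo left out, Prox1 was called in all 6 fits, Lfng in 5, Myo7a in 2, and Fgf20, Tectb and Cdkn1b in 1 each.

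Of 11 tested neuron genes 1 was called by edgeR, Stmn2, lower by a log2 fold change of -2.96, in all 6 such fits. DESeq2 also called Ntrk3 higher (edgeR log2 fold change 0.52, DESeq2 adjusted p = 0.0210). In the melanocyte, chondrocyte, mesenchyme, and macrophage and blood lists 0 genes were called by edgeR, with 7, 4, 1 and 1 genes at an unadjusted p under 0.05. DESeq2 called 5 melanocyte genes lower and 0 genes of the other 3 lists, and the melanocyte sum was 79.8 to 171 CPM in WT and 24.7 to 67.9 CPM in null embryos, led by Dct and Pmel. The chondrocyte list was led by Col2a1 and Col9a1 and the mesenchyme list by Lum and Dcn. The macrophage and blood list, led by Hbb-bs and Hba-a1, summed to 64.2 to 182 CPM in WT and 54.2 to 93.7 CPM in null embryos.

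Finally, genes whose levels followed those of the S100 genes were listed, among 11762 genes with a mean of at least 5 CPM. The measure was Pearson's r of log2 CPM over the 9 libraries, which share depth, genotype and other cell RNA, so it is a description. Closest to S100a1 were Smpx (0.98), a small muscle protein gene tied to hearing loss, Rnd2 (0.98) and P2rx2 (0.97), an ATP-gated channel gene. Smpx stood at 3.85, 4.94 and 10.3 CPM and P2rx2 at 11.9, 17.4 and 34.6 CPM in WT, heterozygous and null embryos on average. Closest to S100a13 were Wls, Rflnb and Tceal3, each with an r of 0.97. Closest to S100b were Meis2, Myo7a and Sec61a1, each with an r of 0.98. Closest to Lor were Nup62cl (0.97), Pawr (0.96) and Fam213a (0.96).

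**Figure D5:**
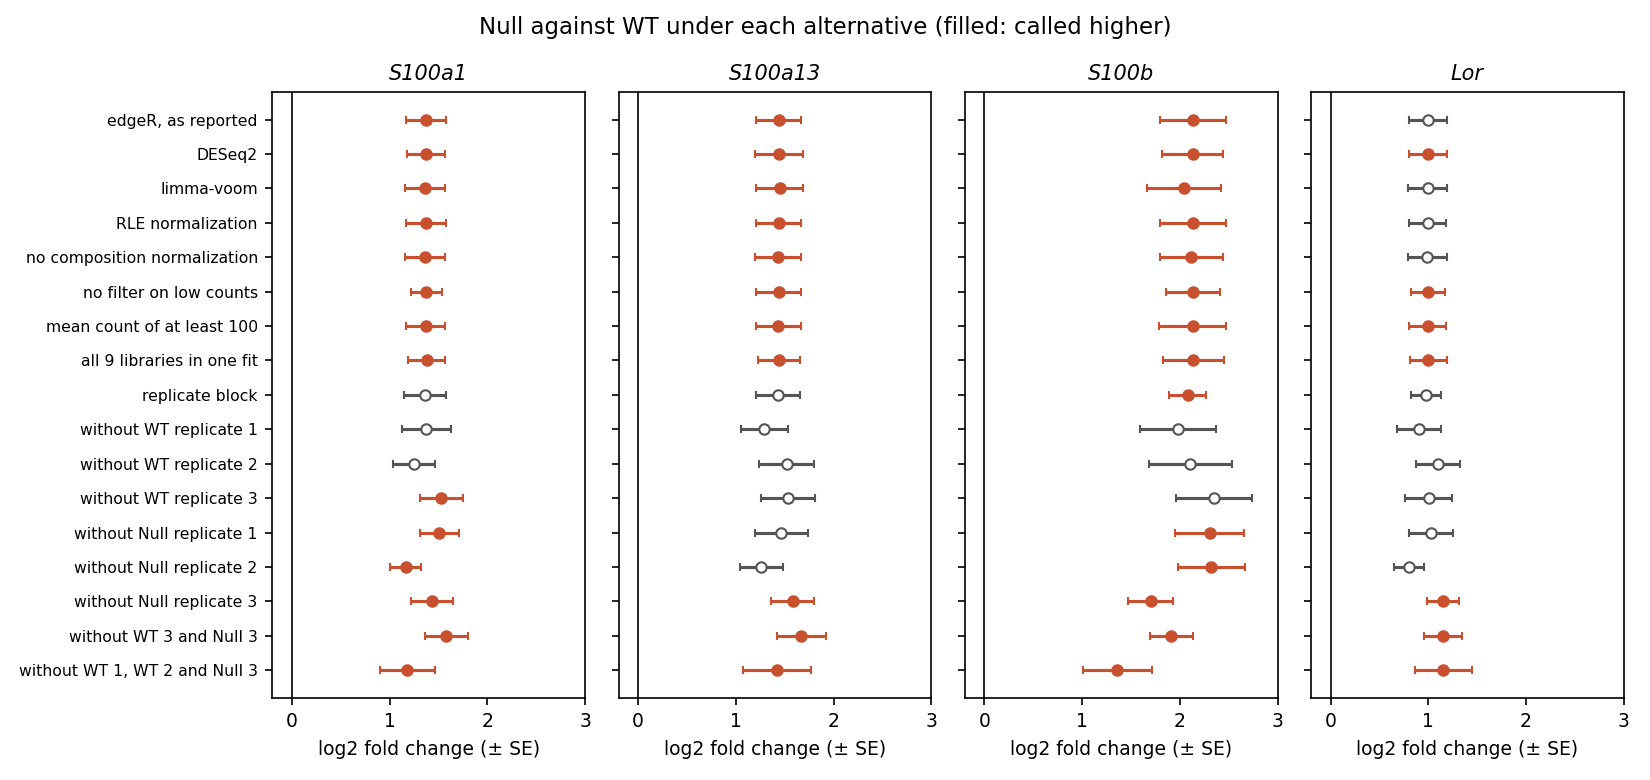
Log2 fold change of null against WT with its SE (x axis) for S100a1, S100a13, S100b and Lor under each alternative processing and with libraries left out (y axis). All values are above 0, and the filled points, called higher, are fewest without WT 1 or WT 2, where 0 of the 4 genes are filled.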

How the data were processed

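The authors sequenced TruSeq mRNA libraries as single reads, aligned them to mm10 with STAR, and deposited the whole numbers of reads on each Ensembl gene as raw counts. Their processing notes name cutadapt 1.13, HTSeq 0.6.1p1 and DESeq2. The strand setting and annotation release are not given in the sources used here. Names and positions came from GENCODE M21, which held 54165 of the 54232 genes.

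Each pair of genotypes was fitted on its own 6 libraries with edgeR 4.0.16 in R 4.3.3 (TMM, filterByExpr with a minimum count of 10, quasi-likelihood test, Benjamini-Hochberg adjustment), and called where the adjusted p was below 0.05 and the log2 fold change beyond 0.5 in either direction. Log2 CPM used a prior count of 2. Precision rests on 3 embryos per genotype and on library depths of 24095322 to 30819118 counts. No libraries of a genotype agreed within sampling noise (chi-square per gene of at least 5.70). The fit was tested on simulated data.

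Alternatives were DESeq2 1.42.0, limma-voom (limma 3.58.1), RLE or no composition normalization, no filter, a mean count of at least 100, a fit of all 9 libraries together, a block for the replicate number, and leaving out each embryo. The members and lists were chosen with earlier results of these data known. Named genes were the 9 members, Prdm16, listed genes or genes of the chromosome 3 interval called in null against WT (in a list with none, its 2 most abundant), and the 3 genes closest in pattern to S100a1, S100a13, S100b and Lor. Anxa2, Fgf1, S100a14, Ivl, Gm4202, Acan, Otof, Pvalb, Krt5, Krt1, Evpl and Pmp22 were named after their values were seen. The same holds for Foxd3, Cdh19, Gfra3, Tbx18, Col3a1, Col1a1 and Ntrk3. Single-cell, PCR and imaging experiments were not analysed here.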

Additional observations from a re-analysis of the deposited data

How the results depend on the processing

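The number of these genes called higher in null against WT, 3, was 1 with the replicate block and 0 to 4 with an embryo left out. Against heterozygotes, the 3 called higher became 1 with limma-voom, 1 with a mean count of at least 100, 0 with the replicate block and 0 to 3 with an embryo left out. In heterozygotes against WT, 0 became 1 with DESeq2, 1 without a filter on low counts and 1 with the replicate block. Other listed genes called in null against WT were 6 lower with DESeq2 in place of 1, and 4 higher with the replicate block in place of 7. The replicate numbers did not pair the embryos (correlations of their deviations from -0.28 to 0.20), so the block serves only as a check. Under it S100b kept its call (adjusted p = 0.0195) and S100a1 (0.0760), S100a13 (0.0712) and Lor (0.0711) had none. Lor was called in null against WT with DESeq2, without a filter (adjusted p = 0.00286), with a mean count of at least 100 (0.0460) and with all 9 libraries together (0.0155).

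S100a1, S100a13, S100b and Lor kept a positive log2 fold change of null against WT in all alternatives and subsets. Signs turned in S100a6, S100a10 and S100a16, which were not called. S100a6 in null against WT ranged from -0.21 to 0.49 with an embryo left out, and was -0.20 without WT 3 and null 3 and -0.23 without WT 1, WT 2 and null 3. S100a10 was -0.030 without WT 3 and null 3, and S100a16 ranged from -0.0095 to 0.25 with an embryo left out. With an embryo left out, S100a6 ranged from -0.39 to 0.020 in heterozygotes against WT and from -0.015 to 0.69 in null against heterozygotes. The cause of these shifts was not tested. Depth limits S100a6, and 3 embryos per genotype limit the other tested genes. S100a4 was too low to test, and it shares 302 exon bases with Gm42674. How reads on these bases were counted was not tested.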
